A study of Homo sapiens with 6 samples.

Results

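The 6 genes of human queuosine metabolism (QTRT1, QTRT2, SLC35F2, C9orf64, also named QNG1, B3GNTL1 and GTDC1) were examined in HEK293T cells grown without and with queuine. Their rows were found by Ensembl identifier among the 63086 genes of the count table, and all 6 passed the filter on low counts that left 14905 genes for testing. HEK293T is an established human embryonic kidney line that carries the SV40 large T antigen. The depleted group (0Q) was kept in medium with dialyzed serum, and the supplemented group (100Q) was made from such cells by adding queuine. The labels give the dose both as 100 nM and as 1 µM for 24 hours, so it is not settled here. Each group had 3 libraries, and the labels do not say whether these came from separate cultures, so p-values reflect only how these libraries vary, and that variation may be technical.

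Queuine is a modified guanine base that animals obtain from diet and gut bacteria. Cells take it up, exchange it for the guanine at the wobble position of tRNAs that carry aspartate, asparagine, histidine and tyrosine, and recover it when these tRNAs are degraded. SLC35F2 is the transporter that brings queuine into the cell. QTRT1 and QTRT2 form the tRNA-guanine transglycosylase, in which QTRT1 is the catalytic subunit. C9orf64 is the hydrolase that frees queuine from queuosine nucleotides for reuse. B3GNTL1, also named QTGAL, adds galactose to queuosine in the tyrosine tRNA, and GTDC1, also named QTMAN, adds mannose in the aspartate tRNA.

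Libraries held 7264638 to 8035251 estimated counts in 0Q and 4023956 to 11398835 in 100Q. On the leading principal components of all tested genes, 100Q replicate 2 stood apart on the first (30.9% of the variance), as did 100Q replicate 1 on the second (22.7%). They are also the shallowest libraries, at 4023956 and 5219707 counts, and values without them are given below. Of 7 genes that HEK293T cells are known to express, 6 had a mean of at least 10 CPM (counts scaled to a common library total), and PAX2 had 5.93. Their summed level was 1188 to 1214 CPM in 0Q and 1058 to 1167 in 100Q. Of 10 markers of blood, endothelial, liver, skin and connective tissue cells, 5 (PTPRC, CD3E, LYZ, CDH5 and KRT5) were at 0 in all libraries, and the list summed to 32.6 to 38.3 CPM in 0Q and 35.4 to 36.7 in 100Q. COL1A1, a fibroblast collagen, made up most of that sum, at 25.5 to 31.6 CPM.

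The start regions of the transporter, the enzyme subunits and the hydrolase are shown first, because these are the 4 genes with enough counts for a narrow estimate. Each runs from 250 bases before to 50 bases after a transcription start in RefSeq (GRCh38.p14). For SLC35F2 and QTRT2 this start lies 69506 and 50904 bases inside the gene start annotated in GENCODE. For QTRT1 and C9orf64 it lies 9 and 244 bases inside. Capitals mark matches to GGGCGG (the GC box) or CCAAT (the CCAAT box) on either strand; no TATAAA was found in these 4 windows.
SLC35F2 (chr11:107858738-107859037, minus strand): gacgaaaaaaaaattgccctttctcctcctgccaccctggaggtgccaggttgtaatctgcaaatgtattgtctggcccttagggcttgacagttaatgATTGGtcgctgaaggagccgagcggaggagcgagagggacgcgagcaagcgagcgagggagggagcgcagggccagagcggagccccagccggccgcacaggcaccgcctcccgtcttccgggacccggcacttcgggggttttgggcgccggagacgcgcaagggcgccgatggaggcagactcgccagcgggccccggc
QTRT1 (chr19:10701189-10701488, plus strand): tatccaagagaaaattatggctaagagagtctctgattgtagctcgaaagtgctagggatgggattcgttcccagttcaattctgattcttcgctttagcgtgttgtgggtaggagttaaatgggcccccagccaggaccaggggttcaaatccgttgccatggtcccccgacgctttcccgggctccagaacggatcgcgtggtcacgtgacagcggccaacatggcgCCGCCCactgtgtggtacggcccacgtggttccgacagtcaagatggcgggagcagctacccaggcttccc
QTRT2 (chr3:114056487-114056786, plus strand): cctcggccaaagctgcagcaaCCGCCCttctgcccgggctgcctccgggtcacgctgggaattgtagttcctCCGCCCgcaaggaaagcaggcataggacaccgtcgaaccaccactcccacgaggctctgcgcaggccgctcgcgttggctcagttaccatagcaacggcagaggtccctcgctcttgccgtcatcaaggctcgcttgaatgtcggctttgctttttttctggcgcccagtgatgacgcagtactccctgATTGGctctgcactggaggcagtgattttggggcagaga
C9orf64 (chr9:83956693-83956992, minus strand): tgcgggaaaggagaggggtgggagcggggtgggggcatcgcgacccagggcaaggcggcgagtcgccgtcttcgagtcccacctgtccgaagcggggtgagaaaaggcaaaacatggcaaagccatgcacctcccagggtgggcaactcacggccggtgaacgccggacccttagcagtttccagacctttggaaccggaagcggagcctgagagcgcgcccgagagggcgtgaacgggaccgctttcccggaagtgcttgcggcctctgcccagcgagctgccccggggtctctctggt
The partner subunits differed in these letters. QTRT2 held 2 matches to GGGCGG, at -229 and -178 relative to the start, and 1 to CCAAT at 11, past the start. QTRT1 held 1 match to GGGCGG, at -21. SLC35F2 held 1 match to CCAAT and C9orf64 held none of the 3 motifs. Among 35116 RefSeq windows of 300 bases, 45.0% held GGGCGG, 34.6% CCAAT and 11.5% TATAAA. The windows of QTRT1, QTRT2, SLC35F2 and C9orf64 held 19, 21, 27 and 27 CpG dinucleotides, against a median of 14. In the same order, 57.1%, 60.5%, 71.8% and 71.8% of the RefSeq windows held fewer. RefSeq lists several starts for the sugar transferases, and they differed within each gene. For B3GNTL1 the first of 2 held 5 matches to GGGCGG and 1 to CCAAT with 36 CpG, and the second held 1 to CCAAT with 9 CpG. For GTDC1 the second of 5 held 6 matches to GGGCGG with 52 CpG, and the other 4 held none, with 1 to 9 CpG. Of those 4 GTDC1 starts, 2 held TATAAA and 2 held CCAAT. A match is only a run of letters, and no binding was measured.

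The transporter, the enzyme subunits and the hydrolase were expressed at moderate levels, and the sugar transferases were far lower. Because longer genes collect more reads, levels of different genes were compared per length, as TPM (counts per base of annotated exon, scaled to a common library total) over the union of exons. Over the 6 libraries SLC35F2 had 38.8 ± 5.11 TPM (SD), C9orf64 38.3 ± 5.30, QTRT1 36.1 ± 7.59 and QTRT2 23.5 ± 3.04. B3GNTL1 had 2.51 ± 0.852 TPM and GTDC1 1.92 ± 0.481. The higher-level genes stood above 63.8% (QTRT2) to 77.3% (SLC35F2) of the tested genes, and the sugar transferases above 11.9% (B3GNTL1) and 8.32% (GTDC1).

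In this order the one step whose library ranges did not overlap was that from QTRT2 to B3GNTL1, a ratio of means of 9.39. SLC35F2, C9orf64 and QTRT1 overlapped one another. QTRT1 was above QTRT2 in 6 of 6 libraries, although their ranges overlapped (28.0 to 47.5 and 20.3 to 28.4 TPM). The range of QTRT2 lay below those of SLC35F2 (31.5 to 47.0 TPM) and C9orf64 (30.8 to 44.9 TPM). B3GNTL1 was above GTDC1 in 5 of 6 libraries and below it in 100Q replicate 2. The order among the higher-level genes depended on the length chosen. With the longest transcript QTRT1 came first at 47.3 TPM, followed by QTRT2 at 36.6, and was above QTRT2 in 4 of 6 libraries. With the canonical transcript QTRT1 had 58.0 TPM, apart from all others, and SLC35F2 had 30.4, QTRT2 29.4 and C9orf64 26.6. The gap to the sugar transferases held with each length, with a ratio of means of 6.73 and 6.36 for the lowest of the 4 genes against B3GNTL1.

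**Figure D1:**
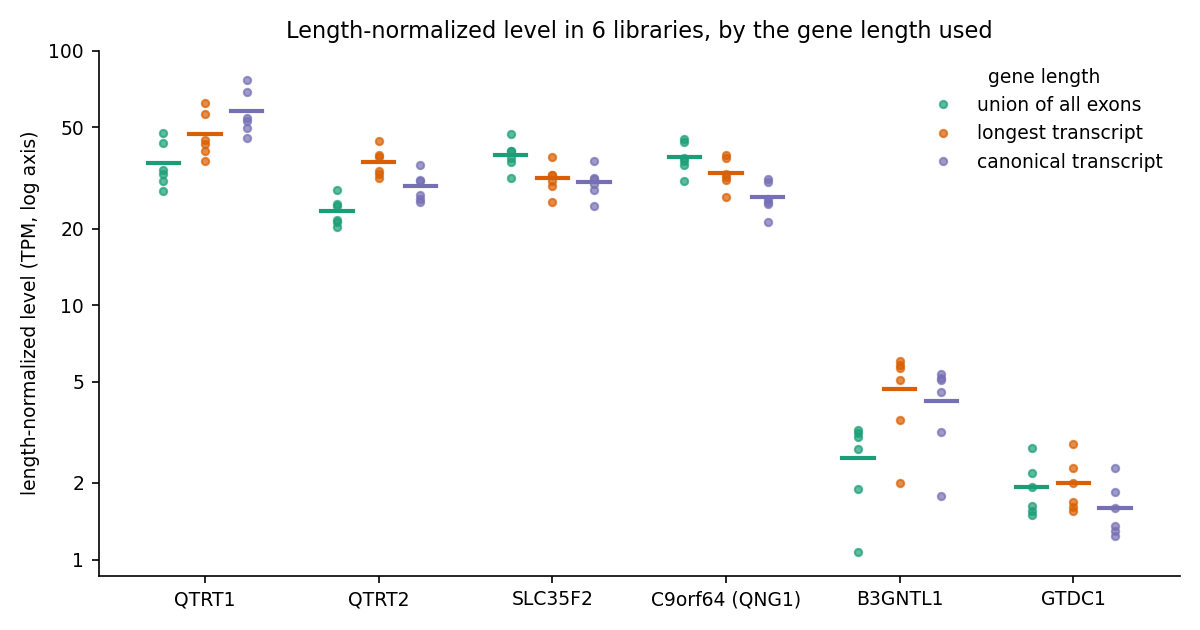
Length-normalized level (TPM, log axis) of each gene in the 6 libraries under 3 choices of gene length; points are libraries and bars their means. QTRT1, QTRT2, SLC35F2 and C9orf64 lie between 20.3 and 76.6 TPM, and B3GNTL1 and GTDC1 between 1.07 and 6.01 TPM.

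The next comparison asked whether supplying queuine went with a change in the messages of the genes that use it. None of the 6 passed the test. With edgeR's quasi-likelihood test over all genes, 0 of 6 had a Benjamini-Hochberg adjusted p under 0.05 (adjusted p 0.987 to 0.996), where 0.0134% of all tested genes (2, ZACN and NEAT1) did. One gene, QTRT1, 1 of 6, had an unadjusted p under 0.05, against 4.72% of all tested genes. The gene under that value depended on the method: with limma-voom it was B3GNTL1 (unadjusted p = 0.0492), with 5.40% of all tested genes, and QTRT1 had an unadjusted p = 0.115. DESeq2 and limma-voom also called 0 of the 6, with 0.0599% and 0.00671% of their tested genes called. Log2 fold changes (100Q minus 0Q) were above 0 for 4 of the 6, against 49.4% of all tested genes, and their median was 0.13, against -0.0027 over all. For 5 of the 6 the 95% interval lay within a 2-fold change in either direction, which was so for 75.9% of all tested genes. The exception was B3GNTL1. In such bulk libraries, fewer cells that express a gene and less RNA of it per cell cannot be told apart.

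The queuine transporter SLC35F2 (chromosome 11, 107790991 to 107928293, minus strand, hg38) was at 37.0, 42.1 and 43.3 CPM in 0Q replicates 1 to 3 and at 53.5, 47.0 and 43.7 CPM in 100Q. Every 100Q library lay above every 0Q library, but 100Q replicate 3 was above 0Q replicate 3 by only the difference of 43.7 and 43.3 CPM. The fitted fold was 1.17, with a 95% interval of 0.971 to 1.41 (edgeR, unadjusted p = 0.0918, Benjamini-Hochberg adjusted p = 0.987). Groups that did not overlap were seen for 2 of the 6 genes, SLC35F2 and C9orf64, both higher in 100Q, and for 10.6% of all tested genes (5.39% with 100Q higher). Leaving out 100Q replicate 1, which had the highest value, gave a log2 fold change of 0.14 ± 0.14 (SE), against 0.23 ± 0.13 in all libraries. Without 100Q replicates 1 and 2 it was 0.10 ± 0.17. RAB39A, a small GTPase gene on the opposite strand that lies 154 bases beyond the SLC35F2 locus at its higher coordinate, had -0.23 ± 0.42. The SLC35F2 start shown above lies 69506 bases inside that end of the locus.

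The subunits of the transglycosylase had estimates of opposite sign, and neither passed. QTRT1 (chromosome 19, 10701430 to 10713437, plus strand) was at 39.5, 35.2 and 31.6 CPM in 0Q and at 53.3, 49.7 and 35.2 CPM in 100Q. Replicates 1 and 2 of 100Q were the highest of the 6 libraries, whereas replicate 3 lay within the range of 0Q. The fitted fold was 1.28 (95% interval 1.01 to 1.62; edgeR, unadjusted p = 0.0396, Benjamini-Hochberg adjusted p = 0.987), and 542 genes had a smaller p.

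Those 2 high QTRT1 values are in the shallowest libraries, which also stand apart on the principal components. By another measure replicate 3 was the odd library of 100Q. Chi-square over its degrees of freedom was 5.24 between 100Q replicates 1 and 2, and 12.7 and 14.2 between each of them and replicate 3. Within 0Q it was 5.31 to 7.75. Replicate 3 is also the deepest library, and this measure was not adjusted for depth. The part of these differences in the QTRT1 value was not tested. Without 100Q replicates 1 and 2 the log2 fold change was -0.01 ± 0.18 (SE, edgeR), a fit in which the lone 100Q library is assumed to vary like those of 0Q. Without 100Q replicate 3 it was 0.54 ± 0.15 (edgeR, unadjusted p = 0.00238, Benjamini-Hochberg adjusted p = 0.542). Without 100Q replicate 1 it was 0.23 ± 0.17. DNM2, the neighbour of QTRT1 at higher coordinates, which encodes a dynamin, had -0.05 ± 0.08.

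QTRT2 (chromosome 3, 114005833 to 114088422, plus strand), the partner that the catalytic subunit needs for activity, was at 59.0, 66.9 and 65.0 CPM in 0Q and at 53.5, 57.3 and 71.5 CPM in 100Q. The libraries of 100Q held both the lowest and the highest value, in the reverse order of QTRT1. Its fitted fold was 0.964, with a 95% interval of 0.805 to 1.15 (edgeR, Benjamini-Hochberg adjusted p = 0.995). The estimate changed sign without 100Q replicate 1 (0.03 ± 0.13 on the log2 scale) and without both 100Q replicates 1 and 2 (0.17 ± 0.14). Its exons share 130 bases with CCDC191 on the opposite strand, which had 4.49 ± 1.08 and 5.83 ± 2.22 CPM (SD, n = 3), and the strand setting of the counting is not given in the sources used here.

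**Figure D2:**
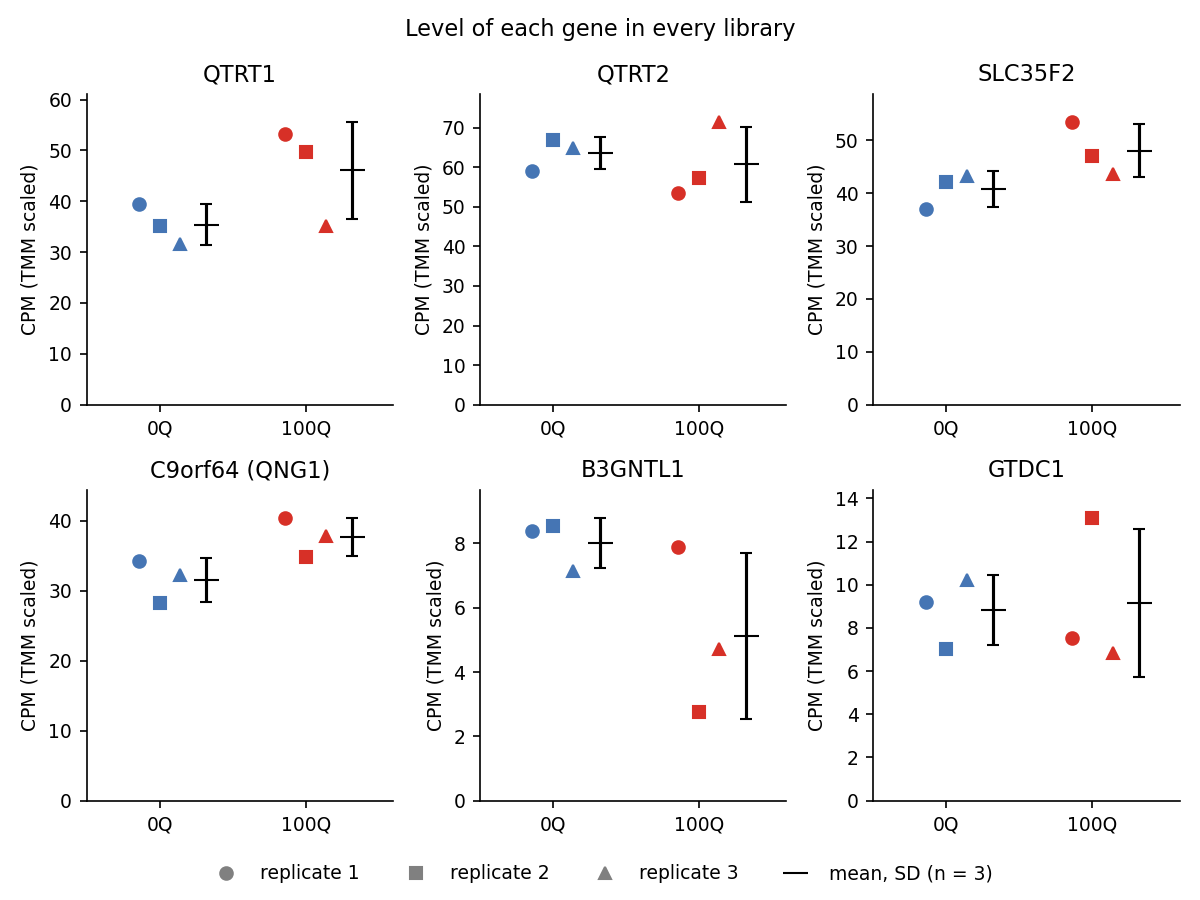
CPM of each gene in every library, with the mean and SD of each group (n = 3) beside the points. SLC35F2 and C9orf64 are the genes whose groups do not overlap, QTRT1 is highest in 100Q replicates 1 and 2, and B3GNTL1 is lowest in 100Q replicate 2 at 2.76 CPM.

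The ratio of the subunits within a library does not depend on its depth factor, so it was compared directly. QTRT1 had 0.669, 0.526 and 0.486 counts per count of QTRT2 in 0Q and 0.996, 0.868 and 0.492 in 100Q. Replicates 1 and 2 of 100Q were above all 0Q libraries, and replicate 3 was among them. The log2 ratio was -0.85 ± 0.24 in 0Q and -0.41 ± 0.54 in 100Q (SD, n = 3 per group), a difference of 0.44 (two-sided exact permutation p = 0.300, Benjamini-Hochberg adjusted over 3 ratios 0.600; the smallest p that 3 libraries against 3 allow is 0.1). Without 100Q replicate 3 the difference was 0.74 (exact permutation p = 0.1, the smallest that this design allows), and without 100Q replicates 1 and 2 it was -0.17. Per length of exon union, QTRT1 stood at 1.14 to 2.34 times QTRT2, and the mean ratio of 1.58 became 1.33 with the longest and 2.04 with the canonical transcripts.

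Salvage of queuine depends on C9orf64 (chromosome 9, 83938311 to 83956986, minus strand). It was at 34.3, 28.2 and 32.2 CPM in 0Q and at 40.4, 34.9 and 37.8 CPM in 100Q. Every 100Q library lay above every 0Q library, with 100Q replicate 2 and 0Q replicate 1 closest, at 34.9 and 34.3 CPM. The fitted fold was 1.2 (95% interval 0.980 to 1.46; edgeR, unadjusted p = 0.0747, Benjamini-Hochberg adjusted p = 0.987). Leaving out 1 library at a time moved the log2 fold change between 0.18 and 0.32, and without 100Q replicates 1 and 2 it was 0.26 ± 0.18, as in all libraries (0.26 ± 0.14). HNRNPK, the neighbouring gene at higher coordinates, which encodes an RNA-binding protein, had 920 ± 22.4 and 920 ± 43.8 CPM (SD, n = 3), a log2 fold change of -0.00015 ± 0.07 (SE).

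Uptake and salvage were set against each other within libraries. SLC35F2 had 1.08, 1.5 and 1.34 counts per count of C9orf64 in 0Q and 1.32, 1.35 and 1.16 in 100Q. The 100Q values lay inside the range of 0Q, and the log2 ratio differed by -0.02 (exact permutation p = 0.900, adjusted over 3 ratios 0.900).

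**Figure D3:**
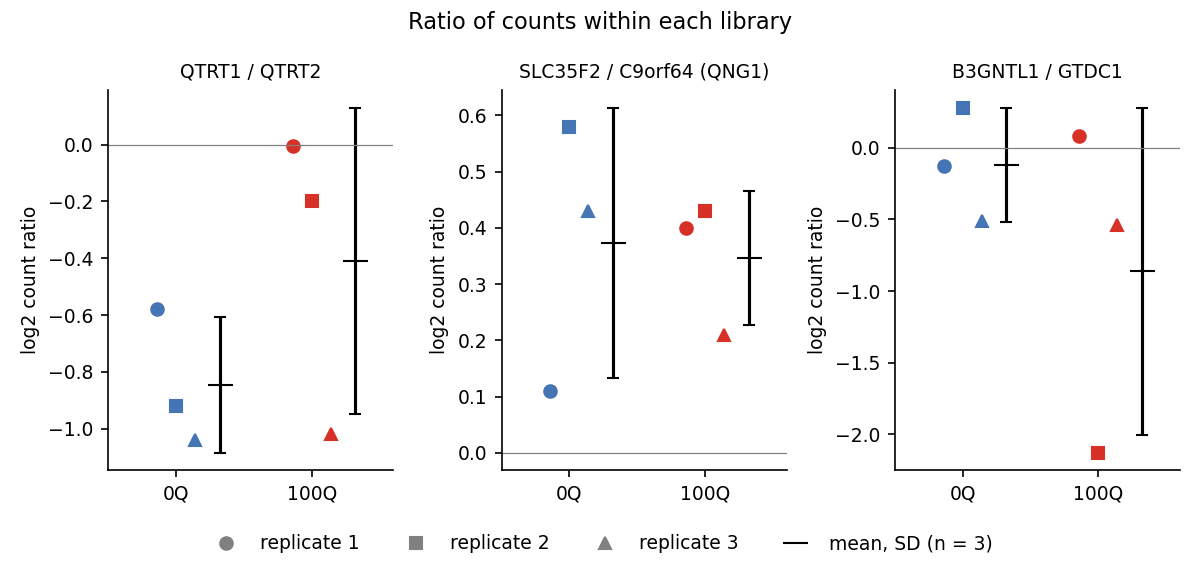
Log2 ratio of the counts of 2 genes within each library, with the mean and SD of each group (n = 3). The QTRT1 to QTRT2 ratio is highest in 100Q replicates 1 and 2, and the B3GNTL1 to GTDC1 ratio is lowest in 100Q replicate 2, at -2.13.

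The sugar transferases had few reads, so their intervals were wide. B3GNTL1 (chromosome 17, 82942149 to 83051809, minus strand) had 60.47, 68.01 and 53.96 estimated counts in 0Q and 41.11, 11.49 and 54.99 in 100Q, or 8.38, 8.55 and 7.13 CPM and 7.89, 2.76 and 4.72 CPM. Replicates 2 and 3 of 100Q were below all 0Q libraries and replicate 1 was among them. The fitted fold was 0.644 (95% interval 0.369 to 1.13; edgeR, unadjusted p = 0.114, Benjamini-Hochberg adjusted p = 0.987). The log2 fold change of -0.63 ± 0.38 became -0.38 ± 0.35 without 100Q replicate 2 and -1.04 ± 0.39 without 100Q replicate 1 (SE). Without 100Q replicates 1 and 2 it was -0.76 ± 0.41. B3GNTL1 was the one gene of the 6 with fractional counts, in 6 of 6 libraries, which arise where reads fit several genes; 41.1% of tested genes had one in at least 1 library. Its exons share 1901 of 8004 bases with TBCD, a tubulin folding cofactor gene on the opposite strand at 138 ± 8.49 and 136 ± 7.47 CPM (SD, n = 3), so its counts are uncertain.

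GTDC1 (chromosome 2, 143938068 to 144332568, minus strand) was counted 66, 56 and 77 times in 0Q, and 39, 52 and 80 times in 100Q, or 9.21, 7.04 and 10.2 CPM and 7.51, 13.1 and 6.86 CPM. Its highest value was in 100Q replicate 2, the library with the lowest B3GNTL1. The groups overlapped, and the fitted fold was 1.02 (95% interval 0.639 to 1.61; edgeR, Benjamini-Hochberg adjusted p = 0.996). The sign of the estimate was not stable: it was -0.30 ± 0.31 without 100Q replicate 2 and 0.21 ± 0.34 without 100Q replicate 3 (log2, SE).

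Within libraries B3GNTL1 had 0.916, 1.21 and 0.701 counts per count of GTDC1 in 0Q and 1.05, 0.221 and 0.687 in 100Q. The low ratio of 100Q replicate 2 stood apart from the other 5 libraries. The log2 ratio differed by -0.75 between groups (exact permutation p = 0.400, adjusted over 3 ratios 0.600), and by -0.11 without 100Q replicate 2.

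The genes that act on the same tRNAs, and the paralogs of the transporter, showed no call either. This list held the tRNA methyltransferase TRDMT1, whose action on the aspartate tRNA is known to respond to queuosine, cytosolic and mitochondrial synthetases that charge the tRNAs for tyrosine, histidine and asparagine, and SLC35F1, SLC35F3, SLC35F4, SLC35F5 and SLC35F6. Of 12 genes 10 were tested and 0 passed in either direction with edgeR, 0 with DESeq2 and 0 with limma-voom, where these methods called 0.0134%, 0.0599% and 0.00671% of all tested genes. None (0 of 10) had an unadjusted p under 0.05, against 4.72% of all tested genes, and 0 of 10 had groups apart, against 10.6%. With so few genes these counts are near the shares over all tested genes. The median log2 fold change was -0.031, with 5 above 0.

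TRDMT1 had 17.0 ± 2.02 CPM without queuine and 13.6 ± 5.05 CPM with it (SD, n = 3), a log2 fold change of -0.28 ± 0.25 (SE). Its 100Q libraries had 16.0, 7.78 and 17.0 CPM, so replicate 2, which stands apart on the first principal component, was low, and without it the log2 fold change was -0.04 ± 0.19. Among the cytosolic synthetases, NARS1 for asparagine had 0.15 ± 0.09, HARS1 for histidine 0.13 ± 0.11 and YARS1 for tyrosine 0.05 ± 0.08. The mitochondrial enzymes had -0.07 ± 0.13 (YARS2), -0.09 ± 0.13 (NARS2) and -0.12 ± 0.12 (HARS2). Per length of exon union YARS1 stood at 125 ± 6.02 TPM, NARS1 at 99.3 ± 9.18 and YARS2 at 51.8 ± 3.73, above the mean of each of the 6 queuosine genes. HARS2 (32.4 ± 2.33), HARS1 (18.1 ± 2.00) and NARS2 (7.34 ± 0.570) were not. Of the transporter paralogs, SLC35F6 had 40.5 ± 3.62 TPM, close to SLC35F2, SLC35F1 25.4 ± 3.70 and SLC35F5 16.6 ± 1.75. SLC35F3 had 2 to 12 counts per library and SLC35F4 had 0.

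**Figure D4:**
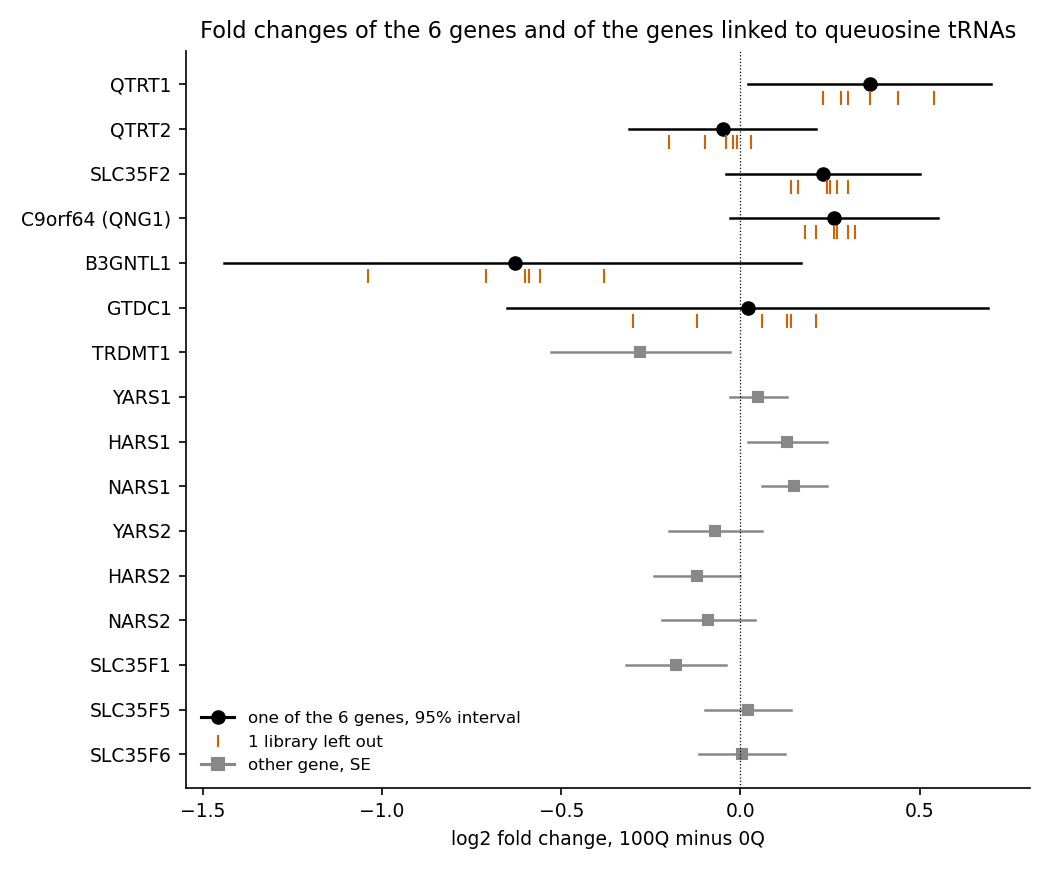
Log2 fold change (100Q minus 0Q) of the 6 genes with 95% intervals (black) and with 1 library left out at a time (orange ticks), and of the 10 tested linked genes with SE (grey). Of the 6 intervals, 5 include 0; that of QTRT1 runs from 0.02 to 0.70, and the gene did not pass after adjustment.

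Queuosine sits where the tRNA reads the last base of tyrosine, histidine, asparagine and aspartate codons, which end in C or T. The coding sequences of the 6 genes were therefore counted for these codons, with the canonical GENCODE transcript. GTDC1 and C9orf64 held the largest shares, 17.5% and 17.0% of their codons, above those of 91.3% and 88.2% of 12460 tested coding sequences of at least 100 codons (median 13.8%). B3GNTL1 had 14.7%, QTRT2 13.7%, QTRT1 12.4% and SLC35F2 11.5%.

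For the last base, the sugar transferases were the highest and lowest of the 6. In B3GNTL1 40 of 51 such codons ended in C, 78.4% (95% exact binomial interval 64.7 to 88.7), and in GTDC1 25 of 80, 31.2% (21.3 to 42.6). These stood above 85.5% (B3GNTL1) and 9.74% (GTDC1) of the tested coding sequences. The histidine codons of B3GNTL1 were 16 with C and 0 with T, and the aspartate codons of GTDC1 were 6 with C and 22 with T. QTRT1 had 72.0% (57.5 to 83.8), whereas QTRT2, SLC35F2 and C9orf64 had 52.6%, 55.8% and 51.7%, near the median of 55.6%. The intervals treat codons as independent draws. The stretch of 20 codons within 1 exon that holds the most such codons is shown for both transferases (hg38, GENCODE release 44), with these codons in capitals, to show the contrast of C and T endings.
B3GNTL1 (chr17:82957187-82957246, minus strand, exon 10 of 13, codons 274 to 293): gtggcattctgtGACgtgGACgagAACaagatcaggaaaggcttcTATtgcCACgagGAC
GTDC1 (chr2:144007241-144007300, minus strand, exon 7 of 12, codons 253 to 272): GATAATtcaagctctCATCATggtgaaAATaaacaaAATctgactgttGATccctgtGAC
The B3GNTL1 stretch held 6 such codons, 5 of them ending in C, and the GTDC1 stretch held 8, 7 of them ending in T. The files hold message levels, and how these codons were read was not measured.

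**Figure D5:**
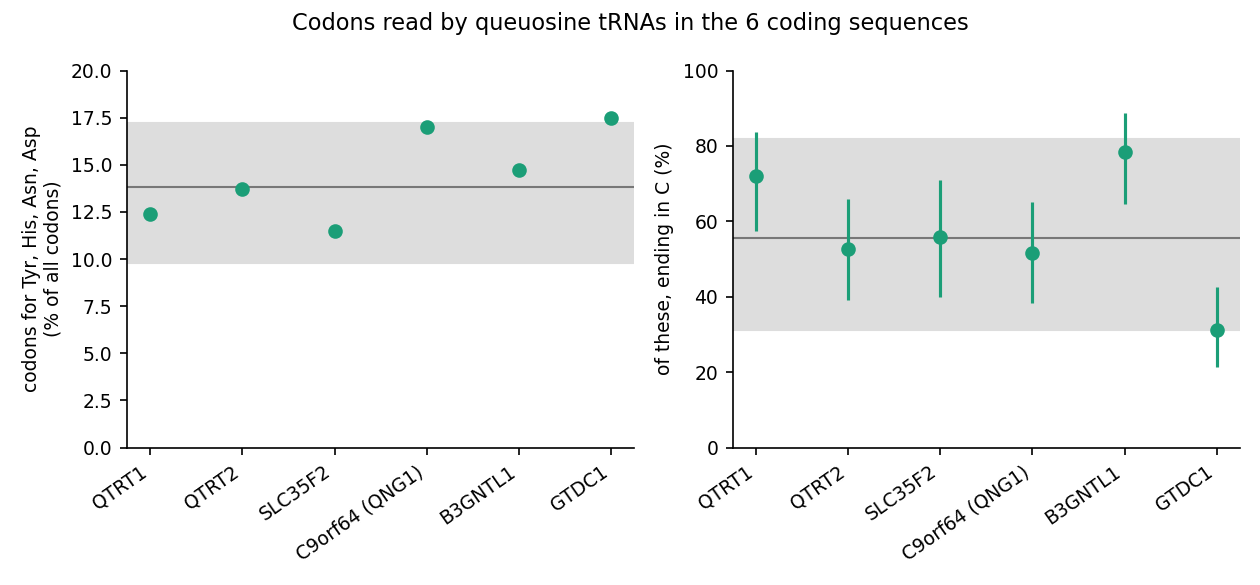
Percentage of codons that encode aspartate, asparagine, histidine or tyrosine (left) and the part of them ending in C (right, with 95% exact binomial intervals) in each coding sequence; the line and band are the median and the 10th to 90th percentile of 12460 coding sequences. B3GNTL1 at 78.4% and GTDC1 at 31.2% are the highest and lowest of the 6 for C endings.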

How the data were processed

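For each of 6 HEK293T libraries the authors deposited an estimated count for every Ensembl gene, without normalization; FastQC, STAR and RSEM are named without versions, per the submitters' processing notes, and hg38 per the series design. Strand setting, annotation and molecular identifiers were not given in the sources used here. Groups came from the sample titles. Of 63086 identifiers, 62541 matched GENCODE release 44, which gave names, coordinates and lengths; unmatched genes held 0.129% of counts.

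Counts were rounded and tested with edgeR 4.0.16 (R 4.3.3, quasi-likelihood, TMM, minimum count 10, Benjamini-Hochberg adjusted p under 0.05). In simulated data with 50 genes changed at each fold, this procedure recovered 40% at 1.5-fold and 90% at 2-fold. It made 167 calls there, 5 of them wrong, against 2 calls in the data. Folds below 1.5 were not simulated, so the simulation cannot say how often smaller changes would be found. CPM are TMM scaled. Log2 count ratios used a pseudocount of 0.5 and exact permutation tests. Promoters came from RefSeq (GRCh38.p14), where all 6 genes matched, 3 of them under newer symbols. Alternatives were RLE, library size only, no or a stricter filter (mean count 50), DESeq2 1.42.0, limma-voom (3.58.1), a replicate block, other pseudocounts, other gene lengths and leaving out libraries. Canonical lengths and leaving out 100Q replicates 1 and 2 together were added after seeing the data. No replicate was a copy of another: within groups, chi-square over its degrees of freedom was 5.24 to 14.2.

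The members and lists were chosen with earlier results of these data known. Named genes are the 6 members, overlapping or nearest genes, the linked list, genes past the threshold and, per member, the 2 genes of at least 10 CPM with the smallest root mean square difference of centred log2 CPM. Markers were checked as lists. Some genes that this rule takes are left out here. Protein sequences were not used here.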

Additional observations from a re-analysis of the deposited data

How the results depend on the processing

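No fit called any of the 6 genes: over 13 to 14 alternatives each, the smallest adjusted p was 0.542, for QTRT1 without 100Q replicate 3. SLC35F2, C9orf64 and B3GNTL1 kept their direction throughout, at log2 fold changes of 0.10 to 0.32 for the first pair and -1.04 to -0.38 for B3GNTL1, which the stricter filter left out. QTRT1 ran from 0.23 to 0.54 without 1 library, and was -0.01 without both 100Q replicates 1 and 2, where QTRT2 was 0.17 and GTDC1 -0.36. QTRT2 ran from -0.20 to 0.03 without 1 library, and GTDC1 from -0.30 to 0.21. GTDC1 was also negative with limma-voom (-0.13). The cause was not tested.

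The count of genes past the threshold, 2 in all libraries, was 71 with no filter on low counts, 1 with the stricter filter, 14 with DESeq2, 1 with limma-voom and 0 to 6 without 1 library. No gene passed when 0Q replicate 1, 100Q replicate 1 or 0Q replicate 2 was left out (edgeR; 725, 727 and 549 genes at an unadjusted p under 0.05), and 6 passed without 100Q replicate 3.

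The difference in the QTRT1 to QTRT2 log2 ratio was 0.24 to 0.74 without 1 library and -0.17 without both 100Q replicates 1 and 2. That of SLC35F2 to C9orf64 was -0.16 to 0.08 without 1 library, and that of B3GNTL1 to GTDC1 -1.21 to -0.11. Other pseudocounts changed no direction. With the length of the longest transcript, levels were 47.3 TPM for QTRT1, 36.6 for QTRT2, 31.5 for SLC35F2 and 4.69 for B3GNTL1. With that of the canonical transcript they were 58.0, 29.4, 30.4 and 4.19 for the same genes and 26.6 for C9orf64.

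Same-numbered libraries of the groups deviated together little (r of 0.00143, -0.0204 and 0.0813 for replicates 1, 2 and 3, over tested genes, which are not independent). Libraries with different numbers had r from -0.0856 to 0.0691. With 3 libraries per group, each centred on its group mean, these values cannot decide whether the numbers pair the samples. The labels do not say, and the main fit treated the samples as unpaired. With the replicate block 3 genes passed, GTDC1 was -0.0060, QTRT1 0.36 and the QTRT1 to QTRT2 ratio 0.44 (exact permutation p = 0.250, the smallest possible for 3 pairs), and none of the 6 genes passed. Depth limits the sugar transferases most: 290.03 counts of B3GNTL1 and 370.00 of GTDC1 over 6 libraries, against 1503 to 2786 for the other genes.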

Other observations

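For each of the 6 genes, the tested genes of at least 10 CPM with the most similar pattern over the 6 libraries were found by the root mean square (RMS) difference of log2 CPM after each gene's own mean was subtracted, among 10585 genes. The libraries share their depth and preparation, so likeness is a description with no test. QTRT1 was closest to SWI5, a recombination factor (0.0673), and ZNF717 (0.0686), where the median gene differed by 0.312. QTRT2 was closest to RCHY1, a ubiquitin ligase (0.0338), and BRI3BP (0.0349), against a median of 0.203. SLC35F2 was closest to MAN2C1, a cytosolic mannosidase (0.0279), and SNX7, a sorting nexin (0.0434), against 0.219. C9orf64 was closest to RPS6KL1 (0.0277) and SH3PXD2B (0.0338), against 0.223. GTDC1 was closest to THRB, a thyroid hormone receptor (0.0875), and FBXO10 (0.0907), against 0.358. B3GNTL1 had no gene as near, with SUPT3H at 0.233 and EGLN3, a prolyl hydroxylase, at 0.246, against 0.590. B3GNTL1 itself varied more around its own mean (RMS 0.576) than the others (0.142 to 0.327). Its own level was under the limit of 10 CPM set for the compared genes, so its larger distances are no trait apart from that spread. None of these genes passed the test between groups with edgeR.

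Among the nearest tested genes on either side of each of the 6, FN3K, which encodes fructosamine 3-kinase and lies 190952 bases from B3GNTL1, was counted 5, 2 and 5 times in 0Q, and 13, 7 and 20 times in 100Q. Its level was 0.537 ± 0.248 and 1.99 ± 0.443 CPM (SD, n = 3), a log2 fold change of 1.86 ± 0.70 (SE, edgeR, Benjamini-Hochberg adjusted p = 0.987). All its 0Q counts were below the minimum count of 10, so FN3K was tested only through 100Q, where it was higher. This fold is therefore no evidence of a difference between the groups. The other nearest genes reported here had log2 fold changes from -0.28 (KIF27) to 0.19 (ZEB2). Of the overlapping genes, CCDC191 had 0.39 ± 0.41 and TBCD -0.02 ± 0.09 (SE).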
